A study of Mus musculus with 30 samples.

Results

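Activated CD8 T cells labelled Furin knockout (KO) were compared with wild-type (WT) cells cultured without added cytokine, in 10 of the 30 libraries of the series. The members were chosen by their labels alone: the 5 WT and 5 KO libraries whose titles name neither TGFB1 nor IL12. The cells were naive CD8+ T cells of C57BL/6 mice aged 8 weeks, sorted magnetically out of spleen and lymph nodes and kept for 3 days in serum-free medium. Plate-bound antibodies to CD3 and to CD28, each at 5 µg/ml, activated every culture. Each genotype had 4 females and 1 male. The labels give the genotype only as WT or KO. They name neither the part of Furin that was removed nor a Cre driver, and nothing says that the libraries came from separate animals, so p-values measure the spread between these libraries, which may be technical.

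FURIN is a proprotein convertase of the trans-Golgi network, the cell surface and endosomes. It cleaves inactive precursors, among them pro-TGFB1, the insulin-like growth factor receptor, integrin chains and metalloproteases, into mature proteins. In T cells it is known for a part in the release of active TGFB1 and in peripheral tolerance. Antibodies to CD3 and CD28 stand in for antigen and costimulation: they start calcium, NFAT and NF-kB signalling, production of interleukin 2, growth and division, and the build-up of granzymes.

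The libraries held 8362026 to 9875726 counts in WT and 7621632 to 11292997 in KO, and 10849 genes passed the filter on low counts. CD8 T-cell markers fit the label: Cd8a was at 542 to 710 CPM (counts scaled to library size) and Cd4 at no more than 1.17 CPM. The summed CPM of the 6 CD8 markers ran from 2328 to 2677 in WT and from 2324 to 2487 in KO, with Cd8b1 called lower in KO (log2 fold change -0.30). Summed B-cell markers were at 9.60 to 16.7 CPM in WT, against 5.94 to 10.8 in KO, nearly all of it Cd79b (called lower, -0.67), with Pax5 at 0 in every library. Natural killer, erythroid and platelet lists stayed at or below 1.31 CPM. The myeloid list was almost wholly Cst3 and the stromal list almost wholly Pecam1, which reached 77.2 CPM in WT 71. The gamma-delta T-cell list summed to 6.22 to 17.0 CPM in WT and 5.55 to 14.2 in KO. The part of these small differences in the results was not tested. Ribosomal protein genes took 8.18% to 9.27% of the counts and mitochondrial genes 0.66% to 1.34%.

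The first principal component held 45.4% of the variance of log2 CPM, and the libraries did not separate fully by genotype along it. WT libraries 62, 67, 71, 72 and 75, numbered as in their titles, lay at -0.4, -6.4, -31.7, -20.8 and -14.1. KO libraries 63, 68, 70, 73 and 74 lay at 8.3, 24.5, 22.5, -5.1 and 23.3. WT 71 thus stood farthest from KO, and KO 73 lay among the WT libraries. The counts of called genes and of the list members that the results turn on are therefore given with and without these libraries. WT 62 and KO 63 were the male libraries.

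**Figure D1:**
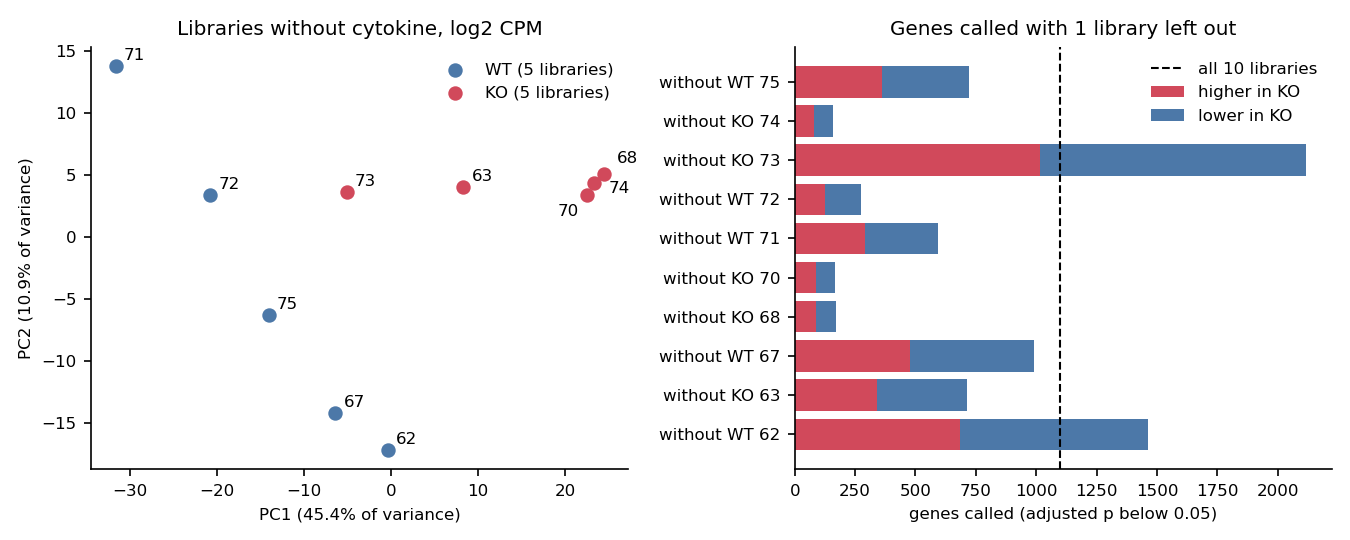
Left, the 10 libraries on the first 2 principal components of log2 CPM (axes: component scores; points: libraries with their title numbers; blue WT, red KO). KO 73 at -5.1 lies between WT 62 and WT 67 on the first component. Right, genes called with each library left out (red higher, blue lower in KO; dashed line, 1099 with all 10), from 157 without KO 74 to 2119 without KO 73.

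Furin itself (ENSMUSG00000030530, GRCm38 chromosome 7, 80388585 to 80405436) was read at nearly the same level in both genotypes. It was at 35.9, 34.6, 34.1, 28.7 and 38.2 CPM in WT 62, 67, 71, 72 and 75, and at 32.3, 32.4, 32.4, 31.3 and 33.6 CPM in KO 63, 68, 70, 73 and 74. Every KO value lay within the WT range. The log2 fold change was -0.08 ± 0.07 SE (adjusted p = 0.473). Counts per gene take in exons outside a deleted part, so this level does not test the KO label. Of the 57 tested genes that start within 5 Mb of Furin, 5 were called, or 8.77%, beside 10.1% of all genes tested. Of the 5, Zfp710 (-0.65), Tm6sf1 (-0.28), Prc1 (-0.19) and Nmb (-0.84) fell, and Polg (0.28) rose.

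Without cytokine, KO cells had more RNA of T-cell growth factor and chemokine genes, of genes induced by the antigen receptor and of several costimulatory and inhibitory receptors. They had less RNA of interferon-induced genes, of cytokine receptors, of granzyme B and of naive-cell genes. By edgeR's quasi-likelihood test, with Benjamini-Hochberg adjusted p below 0.05 (a gene then counts as called), 1099 of 10849 genes differed, or 10.1%. Of these 509 rose (4.69% of genes tested) and 590 fell (5.44%). Most changes were modest: 54 genes rose and 57 fell at least 2-fold, and the median absolute log2 fold change of called genes was 0.42. The 5 KO values lay wholly above the 5 WT values for 334 genes (3.08%) and wholly below for 407 (3.75%). The median log2 fold change of all genes tested was -0.002, and each list below is described by its own median beside it. In these bulk samples, fewer cells of a type and less RNA per cell cannot be told apart.

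The number of calls depended on single libraries. Leaving out KO 74, KO 70 or KO 68 brought it down to 157, 166 or 172 genes, and leaving out WT 72, WT 71, KO 63 or WT 75 to 275, 592, 712 or 721, each in that order. Leaving out KO 73 brought it up to 2119. It was 1847 without WT 71 and KO 73, a pair left out after the data were seen. All genes called with 10 libraries kept their direction in the 10 fits that left out 1 library. Genes chosen by a call in these same libraries could hardly do otherwise, so this is no separate test. Of the called genes, 143 (74 higher in KO) were called in every one of those fits. A fit over all 30 libraries, in which the spread is pooled with the cytokine-treated groups, called 246 of 11718 genes (2.1%), and 235 of those were also called with the 10 libraries. The genes called with the 10 libraries, with all 30 and with each library left out numbered 88, of which 48 were higher in KO; these are the genes described below as called in all of the fits.

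**Figure D2:**
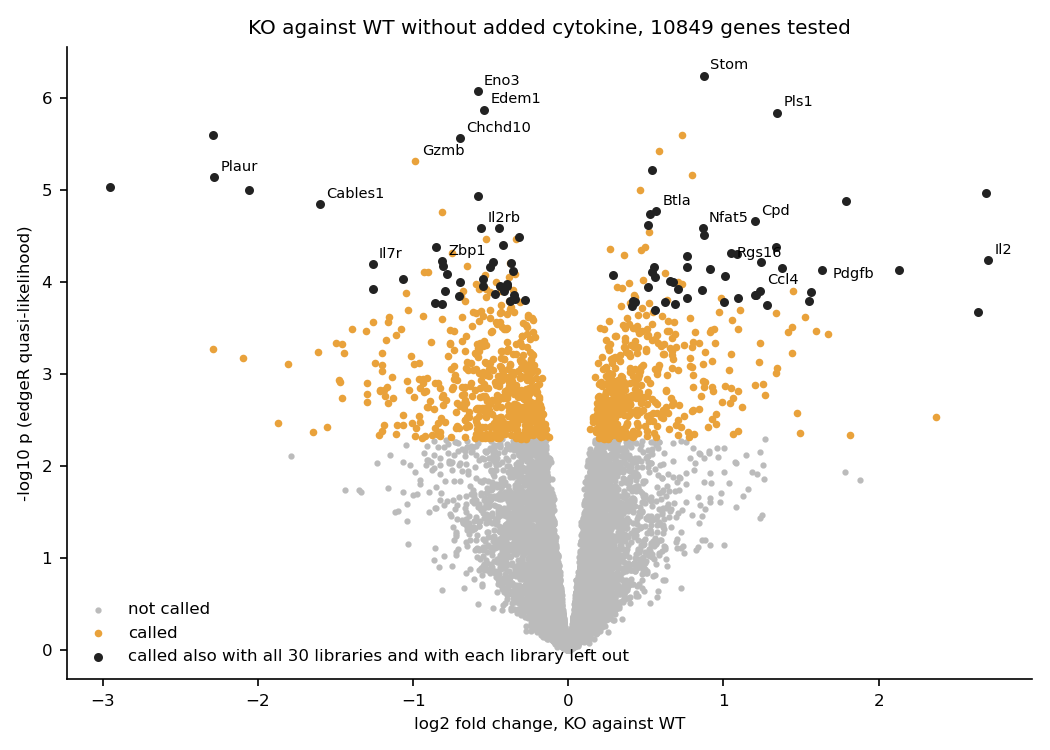
Each point is 1 of the 10849 genes tested (x axis, log2 fold change of KO against WT; y axis, -log10 of the unadjusted p). Grey genes were not called, orange genes were called with the 10 libraries, and the 88 black genes were called also with all 30 libraries and with each library left out, among them Il2 on the right and Plaur on the left.

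Among secreted factors, Il2, which encodes the growth factor that activated T cells make for themselves (ENSMUSG00000027720, chromosome 3, 37120523 to 37125959), had the greatest fold rise of the genes named by the rule. It was at 5.09, 1.43, 1.17, 0.83 and 1.35 CPM in WT 62, 67, 71, 72 and 75, and at 8.79, 16.4, 20.9, 4.08 and 15.8 CPM in KO 63, 68, 70, 73 and 74. KO 73 was the lowest KO library, under WT 62, the highest WT library, and the other 4 KO libraries lay above all WT values. The log2 fold change was 2.71 ± 0.48 (adjusted p = 0.0134), and 2.50 to 3.42 with 1 library left out.

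Inflammatory chemokines, which bring in other immune cells, rose together. Ccl4 was at 114, 96.3, 50.2, 60.04 and 81.4 CPM in WT, against 144, 232, 235, 111 and 230 CPM in KO, in the same order of libraries. Only WT 62 (114) and KO 73 (111) crossed, and Ccl4 rose by 1.24 ± 0.24 on the log2 scale (adjusted p = 0.0135). Its neighbour on chromosome 11, Ccl3, rose by 1.21, Ccl5 by 1.10 with no overlap of the groups, and Ccl9 by 1.45. Spp1, which encodes osteopontin, rose by 1.53 (8.46 to 16.03 CPM in WT, 15.5 to 47.0 in KO), and it lost its call in 3 of the 10 fits without 1 library. Csf2, which encodes the myeloid growth factor GM-CSF, rose by 1.10 from about 1 CPM and was called in 2 of those 10 fits. In the list of cytokines and chemokines, 6 of 22 measured genes (34 listed) rose and 2 fell, Ltb (lymphotoxin beta, -0.54) and Osm (oncostatin M, -0.63). The median over the list was 0.57 on the log2 scale. Without WT 71 the counts were 5 and 2, and without KO 73 they were 9 and 4. Without KO 68, KO 70 or KO 74 they were 4 and 0. Ifng, the main cytokine of cytotoxic T cells, ranged from 5.63 to 13.7 CPM in WT, against 8.58 to 26.4 in KO and was not called (0.62 ± 0.32, adjusted p = 0.209).

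Genes that antigen-receptor signalling switches on early were also higher. Of the 32 genes listed as immediate early or NFAT-linked, all measured, 11 rose and 0 fell, with a median of 0.21. The counts were 10 and 0 without WT 71, 12 and 1 without KO 73, 5 and 0 without KO 68, KO 70 or KO 74, and 5 and 0 in the fit over all 30 libraries. Rgs16, a brake on G-protein signalling, was at 35.4, 30.5, 18.4, 16.5 and 26.6 CPM in WT, against 52.6, 82.9, 85.0, 34.5 and 78.8 CPM in KO. KO 73 lay just under WT 62 and the rest separated, for a rise of 1.38 ± 0.25 (adjusted p = 0.0134). Nfkbid, an atypical inhibitor of NF-kB that is needed for some of its target genes, rose by 0.77, and its highest WT value of 9.70 CPM lay under its lowest KO value of 11.6. Rgs2 rose by 1.01 and Dusp2, a phosphatase that switches off MAP kinases, by 0.48. Egr2 (0.87) and Egr3 (0.95), which restrain T-cell activation, and Rel (0.57), an NF-kB subunit, rose too. Nfatc1, the calcium-regulated factor of this pathway, rose by 0.20. Myc, which drives growth after activation, was at 205 to 286 CPM in WT, against 239 to 274 in KO and was not called (0.08, adjusted p = 0.524).

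**Figure D3:**
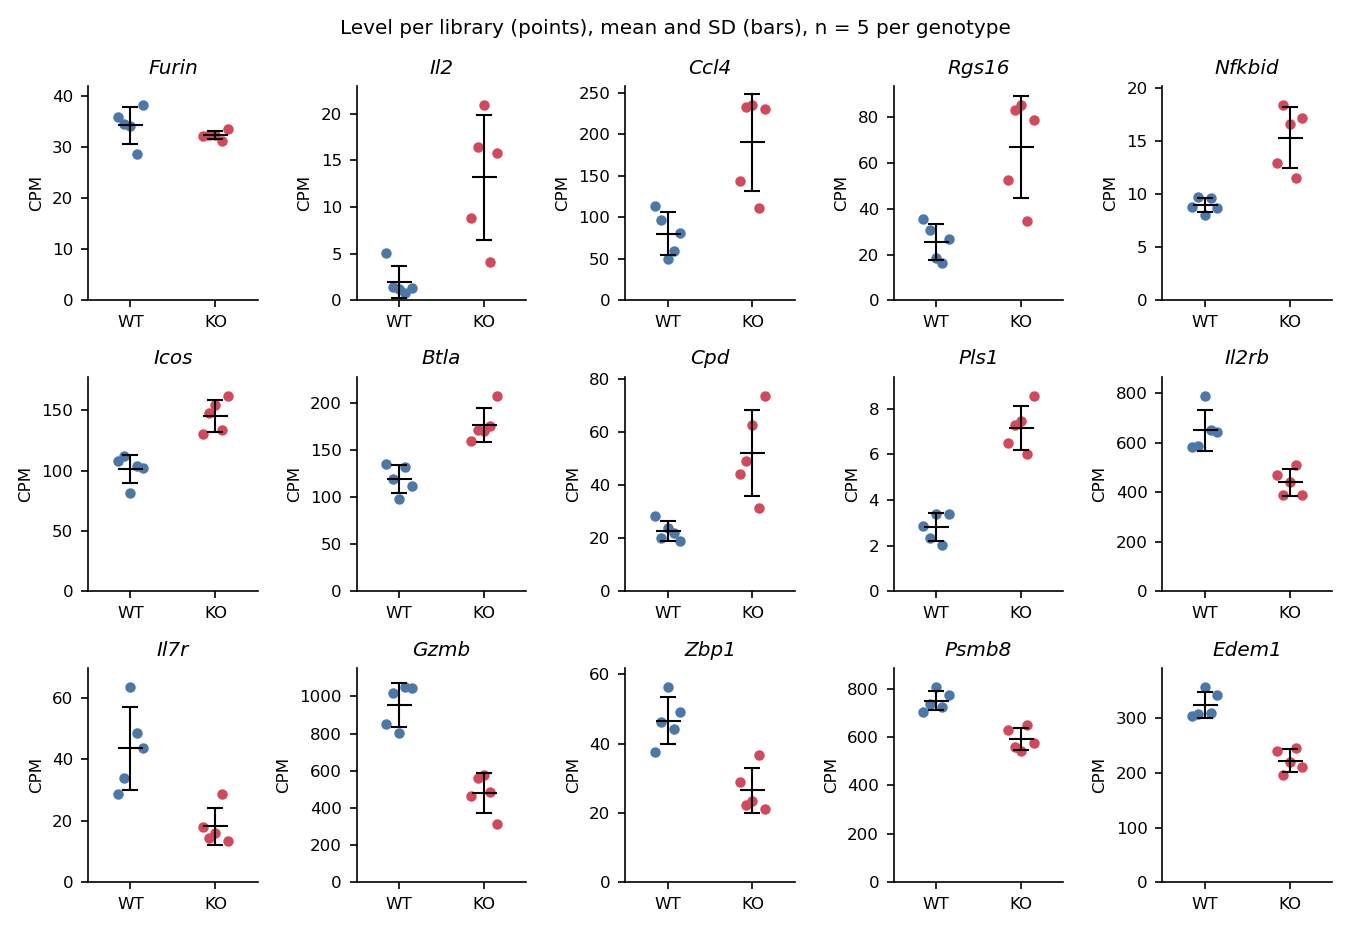
Level in CPM (y axis, starting at 0) of 15 genes in the 5 WT (blue) and 5 KO (red) libraries, with mean and SD as bars. Icos, Btla, Cpd, Pls1 and Nfkbid in KO lie above every WT value and Il2rb, Gzmb, Psmb8 and Edem1 below every WT value, while Furin, Il2, Ccl4 and Rgs16 overlap.

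Receptors of the activated T-cell surface rose on both the stimulating and the restraining side. Icos, a CD28-family costimulator, was at 108, 112, 81.8, 104 and 102 CPM in WT, against 130, 148, 154, 134 and 161 CPM in KO, and it rose by 0.52 ± 0.08 (adjusted p = 0.0105). Btla, an inhibitory receptor for HVEM, was at 136, 120, 98.2, 132 and 112 CPM in WT, against 160, 171, 170, 176 and 207 CPM in KO, and rose by 0.57 ± 0.09 (adjusted p = 0.00892). For Icos and Btla the groups did not overlap, and the call held in the fit over all 30 libraries and with each library left out.

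Of 20 measured costimulation and activation genes (23 listed), 8 rose and 3 fell, with a median of 0.16. The counts were 7 and 3 without WT 71, 9 and 3 without KO 73, 5 and 1 without KO 68, KO 70 or KO 74, 6 and 1 without WT 72, and 3 and 1 in the fit over all 30 libraries. The rises were in Slamf6 (0.58), Tnfrsf4 (OX40, 0.68), Tnfrsf1b (0.31), Cd6 (0.52), Slamf1 (0.60), Tfrc (the transferrin receptor, 0.32) and Cd44 (0.55), besides Icos. The falls were in the adhesion receptor Cd2, with 266 to 369 CPM in WT, against 138 to 266 CPM in KO (-0.79), in Cd80 (-0.51) and in Tnfrsf18 (GITR, -0.33). Of 13 measured inhibitory receptors (17 listed), 4 rose and 0 fell: Btla, Cd5 (0.71), Cd200 (0.64) and Pdcd1, which encodes PD-1 (0.78). Cd5 was at 178 to 255 CPM in WT, against 252 to 428 CPM in KO. Pdcd1 overlapped between the groups and was called in 5 of the 10 fits without 1 library. Lag3 (-0.11), Ctla4 (-0.20) and Tigit (0.24) were not called. Without WT 71 the inhibitory list held 4 rises and without KO 73 it held 5, with 0 falls in each.

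Cytokine receptor genes moved the other way. Of 26 measured (29 listed), 11 fell and 0 rose, with a median of -0.30. Without WT 71, 8 fell and 1 rose, without KO 73, 11 fell and 1 rose, and 4 fell without KO 68, KO 70 or KO 74 and in the fit over all 30 libraries. Il7r, the receptor for the survival cytokine interleukin 7, was at 28.8, 34.1, 63.4, 48.6 and 43.6 CPM in WT, against 18.03, 14.5, 16.1, 28.7 and 13.6 CPM in KO. The KO values lay below the WT values, by a narrow margin between KO 73 and WT 62, and Il7r fell by 1.26 ± 0.22 (adjusted p = 0.0134). Il2rb, the signalling chain shared by the receptors for interleukins 2 and 15, was at 582, 586, 786, 649 and 643 CPM in WT, against 471, 389, 442, 510 and 387 CPM in KO. These groups did not overlap, and Il2rb fell by 0.56 ± 0.09 (adjusted p = 0.0105). The other chains of the interleukin 2 receptor were not called: Il2ra averaged 809 ± 109 CPM (SD, n = 5) in WT and 840 ± 54.5 in KO (0.05, adjusted p = 0.692), and Il2rg had 0.13 (adjusted p = 0.310).

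Receptor chains for interferons were among those that fell: Ifngr1 (-0.67), Ifngr2 (-1.20), Ifnar1 (-0.46) and Ifnar2 (-0.51). Their neighbour in the chromosome 16 cluster of Ifnar1, Ifnar2 and Ifngr2, Il10rb, fell by 0.60. Il10ra (-0.90), Il21r (-0.38), Il4ra (-0.61) and Il12rb2 (-0.73), whose product binds interleukin 12, complete the 11. Il10ra and Il21r did not overlap between groups and were called with each library left out. Ifnar1, with an adjusted p of 0.0493, and Ifngr1 were each called in 3 of those 10 fits. Il10rb was called in 4, Ifngr2 and Ifnar2 in 5 each, and Il4ra and Il12rb2 in 7 each. Ifngr2 was at a low level and overlapped between the groups, with 1.53 to 5.30 CPM in WT, against 1.35 to 2.13 in KO.

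Genes induced by interferons were lower in KO. Type I interferons act through a complex that holds STAT2 and IRF9 and binds a repeated GAAA element, and interferon gamma acts in part through IRF1 on antigen-presentation genes. Of 25 measured members of the type I list (33 listed), 15 fell and 0 rose, with a median log2 fold change of -0.96. The highest of the 10 libraries was WT 71: its median level over the list lay 0.99 above each gene's mean over all libraries, in log2(CPM + 0.5). The other WT libraries lay from 0.01 to 0.50, and the KO libraries from -0.76 to -0.25, except KO 73 at 0.23. Without WT 71, 8 members fell, without KO 73, 21 fell, and without both, 19 fell, and 6 fell in the fit over all 30 libraries. With 1 library left out the count ran from 2, without KO 70 or KO 74, to 21.

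Isg15, a ubiquitin-like protein joined to other proteins during antiviral responses, was at 5.97, 6.84, 9.61, 8.92 and 6.99 CPM in WT, against 1.78, 2.28, 1.84, 7.40 and 2.28 CPM in KO. KO 73 lay within the WT range and the other 4 KO libraries lay well below it. Isg15 fell by 1.30 ± 0.33 (adjusted p = 0.0315) and was called in 3 of the 10 fits without 1 library. Zbp1, a sensor of double-stranded nucleic acid in the Z form, was the member called in all of the fits: it was at 37.5, 46.2, 56.2, 44.2 and 49.2 CPM in WT, against 28.96, 22.4, 23.4, 36.7 and 21.04 CPM in KO. Its groups did not overlap, and it fell by 0.81 ± 0.14 (adjusted p = 0.0134). Irf7, the factor that amplifies interferon production, fell by 1.81, with 11.4 CPM in WT 71 against 3.21 to 3.78 in the other WT libraries and 0.62 to 2.36 in KO. The RNA sensor Ddx58 fell by 1.15, Stat2 by 0.93, Usp18, which shuts off interferon signalling, by 1.45, and the virus-tethering protein Bst2 by 0.34. Ifit3 fell by 2.09 from a low level (1.24 to 3.52 CPM in WT, 0.10 to 1.18 in KO), and since the genome holds a near-identical copy, Ifit3b, its count is uncertain.

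The interferon-gamma list had 17 members lower and 0 higher of 31 measured (33 listed), with a median of -0.41. The counts were 12 lower without WT 71, 25 without KO 73, 25 without both, 6 to 7 without KO 68, KO 70 or KO 74 and 6 in the fit over all 30 libraries. Several members make peptides for MHC class I. Psmb8, a catalytic subunit of the immunoproteasome, was at 705, 737, 804, 725 and 771 CPM in WT, against 629, 561, 541, 651 and 577 CPM in KO. Its groups did not overlap and it fell by 0.34 ± 0.06 (adjusted p = 0.0117). Psmb10, another such subunit, fell by 0.49, Psmb9 by 0.30, the peptide transporter genes Tap1 and Tap2 by 0.38 and 0.28, Tapbp by 0.40 and B2m, the light chain of class I, by 0.25. Irf1, a transcription factor of this response, was at 108 to 174 CPM in WT, against 83.6 to 109 in KO and fell by 0.53. Socs1, which blocks signalling by interferon receptors, fell by 0.70, and Gbp4, a guanylate-binding protein, by 0.75.

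The repeated element was looked for in the promoters, since members of the list moved together. The letters GAAANNGAAA were searched on both strands (TTTCNNTTTC on the other strand), in the 300 bases from 250 before to 50 after the RefSeq start of each gene in GRCm38.p6; no other motif was searched. Of 8273 tested genes with a promoter there, 321 (3.88%) held it. Of the type I list, 14 of 18 measured members with a promoter held it (77.8%), and 8 of 10 called members (80%). Of the interferon-gamma list, 12 of 23 (52.2%) held it, and 6 of 12 called members (50%). The lists were made up of genes known to respond to interferons, so a share above that of all genes goes with their choice. In each list called members held the element about as often as all measured members, so these shares do not bear on the genotype difference. The stretches below show where it lies in 4 called genes, on the gene's strand, 5′ to 3′, with the matches in capitals. They are Isg15 (chr4:156200840-156200931, minus strand), Bst2 (chr8:71537552-71537637, minus strand), Stat2 (chr10:128270248-128270320, plus strand) and Ifit3 (chr19:34583338-34583451, plus strand).
Isg15: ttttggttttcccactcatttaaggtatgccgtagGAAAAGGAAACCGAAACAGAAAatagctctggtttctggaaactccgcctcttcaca
Bst2: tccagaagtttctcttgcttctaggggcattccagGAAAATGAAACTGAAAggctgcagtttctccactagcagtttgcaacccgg
Stat2: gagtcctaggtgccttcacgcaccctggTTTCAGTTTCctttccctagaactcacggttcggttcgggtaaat
Ifit3: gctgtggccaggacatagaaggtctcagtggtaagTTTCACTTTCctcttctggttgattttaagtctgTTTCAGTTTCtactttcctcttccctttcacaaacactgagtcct
In Isg15 and Bst2 the capitals run together because matches overlap, with 3 in Isg15 and 2 in Bst2. Ifit3 holds 2 separate matches and Stat2 holds 1. A match shows that the letters are present in the reference sequence and nothing about binding in these cells.

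**Figure D4:**
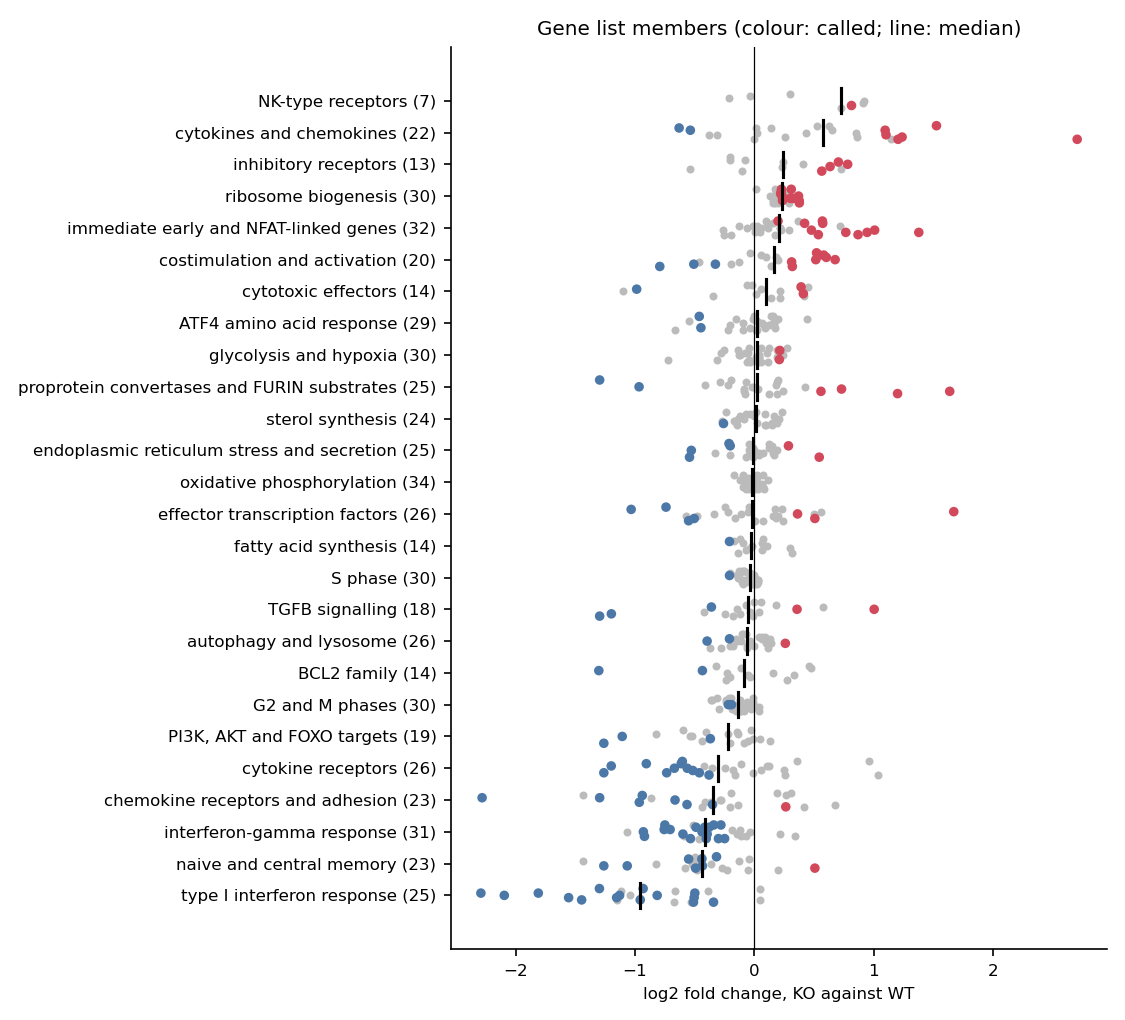
Log2 fold change of KO against WT (x axis) for the measured members of the 26 gene lists (number measured in brackets); red and blue points were called higher and lower, grey points were not called, and black lines are medians. The interferon lists hold 15 and 17 blue points and no red one, and the list of cytokine receptors holds 11 blue points.

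Among cytotoxic effectors, Gzmb, which encodes the protease granzyme B (ENSMUSG00000015437, chromosome 14, 56258838 to 56262260), fell and most of the others were not called. It was at 853, 1019, 801, 1048 and 1046 CPM in WT, against 467, 563, 580, 488 and 313 CPM in KO. The groups were far apart, with means of 953 ± 118 CPM (SD, n = 5) in WT and 482 ± 106 in KO, and Gzmb fell by 0.98 ± 0.14 (adjusted p = 0.00582). The call held with each library left out, and it did not hold in the fit over all 30 libraries (adjusted p = 0.195). Prf1, the pore-forming perforin, was at 52.8 to 122 CPM in WT, against 68.2 to 152 in KO and was not called (0.42, adjusted p = 0.269). Srgn, the proteoglycan that packs granules, rose by 0.39, and Serpinb6b, of a family of protease inhibitors, by 0.41. Thus 2 of 14 measured effectors (21 listed) rose and 1 fell. The rises numbered 1 without WT 71, 3 without KO 73, and 0 by edgeR without KO 68, KO 70, KO 74 or WT 72, and 0 rose and 0 fell in the fit over all 30 libraries.

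Transcription factors of effector and memory cells split. Eomes, a T-box factor, was at 14.8, 18.1, 13.7, 11.7 and 22.9 CPM in WT, against 7.20, 6.02, 11.4, 9.55 and 6.05 CPM in KO, without overlap, and fell by 1.03 ± 0.21 (adjusted p = 0.0150). Its relative Tbx21, which encodes T-bet, was not called (0.18, adjusted p = 0.129). Gata3 (-0.74), Nfil3 (-0.50) and Satb1 (-0.55) fell. Bach2, which restrains effector genes, rose by 0.51 and Tox by 0.36. In all, 3 of 26 measured factors (30 listed) rose and 4 fell, with a median of -0.02. Without WT 71 the counts were 3 and 4, without KO 73 they were 6 and 5, without WT 72 they were 2 and 3, and in the fit over all 30 libraries 1 and 0. Without KO 68, KO 70 or KO 74, 0 rose by the edgeR test and 1, 2 or 0 fell, in that order.

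Genes of naive and central memory cells were mostly on the lower side. Of 23 measured (24 listed), 7 fell and 1 rose, with a median of -0.44 and negative values for 21. Il7r led them, with Dapl1 (-0.44), the kinase Txk (-0.49), the survival gene Bcl2 (-0.43), Satb1, Nsg2 (-1.06) and the transcription factor Foxo1 (-0.32), and Bach2 was the member that rose. Dapl1, Txk and Nsg2 were highest in WT 71, at 102, 58.7 and 52.4 CPM. Without WT 71, 6 fell and 1 rose, without KO 73, 13 fell and 2 rose, without KO 68, KO 70 or KO 74, 1 to 2 fell, without WT 72, 3 fell, and in the fit over all 30 libraries 1 fell. Tcf7, the factor of long-lived T cells, was at 284 to 505 CPM in WT, against 213 to 307 in KO (-0.48, adjusted p = 0.0551) and was not called.

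Of 23 measured chemokine receptors and adhesion genes (30 listed), 7 fell and 1 rose, with a median of -0.35. Plaur, the receptor of urokinase and a regulator of integrins (ENSMUSG00000046223, chromosome 7, 24462484 to 24475968), was at 3.32, 2.35, 4.57, 5.11 and 4.96 CPM in WT, against 0.62, 0.31, 1.44, 1.18 and 0.69 CPM in KO. No values crossed, and Plaur fell by 2.28 ± 0.33 (adjusted p = 0.00663), the greatest fall of the genes named by the rule. Selplg, the selectin ligand PSGL-1, fell by 0.56, Cxcr5 by 0.94 and Icam1 by 0.35. The integrin chains Itgae (-1.29), Itgb7 (-0.66) and Itgb3 (-0.96) fell, and Itgb1 rose by 0.26. Itgae and Itgb7 together form the integrin that binds E-cadherin, and WT 71 was the highest library for each, with 7.27 and 456 CPM. Without WT 71, 4 genes of the list fell and 0 rose, and without KO 73, 11 fell and 5 rose. Without KO 68, KO 70 or KO 74, 1 fell, Plaur, and 3 fell without WT 72 and in the fit over all 30 libraries.

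Genes of TGFB signalling went both ways: 2 of 18 measured (23 listed) rose and 3 fell, with a median of -0.05. Tgfb1, whose precursor FURIN cleaves, averaged 243 ± 15.3 CPM (SD, n = 5) in WT and 243 ± 8.14 in KO and was not called (0.00, adjusted p = 0.983). Pmepa1, a target gene and inhibitor of the pathway, was at 2.21, 3.68, 3.87, 2.38 and 3.05 CPM in WT, against 5.77, 5.19, 7.48, 4.72 and 7.54 CPM in KO, and it rose by 1.00 ± 0.20 (adjusted p = 0.0139). The corepressor gene Tgif1 rose by 0.36. Smad3, which carries the signal to the nucleus, fell by 1.20, with 24.9 CPM in WT 71 and 9.29 to 17.2 in the other WT libraries against 4.57 to 10.6 in KO. The ubiquitin ligase gene Smurf1 fell by 0.36, and Itgae was the third that fell. Without WT 71, 1 rose and 2 fell, and without KO 73, 3 rose and 2 fell. Without KO 68, KO 70, KO 74 or WT 72 and in the fit over all 30 libraries, 1 rose, Pmepa1, and 0 fell by edgeR.

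Among 25 measured genes (35 listed) of convertases and proteins known as FURIN substrates, 4 rose and 2 fell. The counts were 4 and 2 without WT 71, 6 and 3 without KO 73, 3 and 0 without KO 68, KO 70 or KO 74, 3 and 1 without WT 72, and 3 and 0 in the fit over all 30 libraries. The other convertases that were measured, Pcsk1, Pcsk4, Pcsk7 and Mbtps1, were not called, with log2 fold changes of 0.19, -0.20, -0.07 and -0.08. Cpd encodes carboxypeptidase D, which trims the basic residues that convertases leave behind. It was at 28.5, 20.3, 23.9, 21.9 and 18.8 CPM in WT, against 44.3, 49.3, 62.7, 31.3 and 73.5 CPM in KO. The groups did not overlap, and Cpd rose by 1.20 ± 0.19 (adjusted p = 0.0103) and was called in all of the fits.

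Of the substrates, Pdgfb, a chain of platelet-derived growth factor, was at 8.40, 4.39, 2.81, 4.16 and 3.05 CPM in WT, against 11.6, 16.8, 19.02, 7.40 and 16.9 CPM in KO. It rose by 1.64 ± 0.29 (adjusted p = 0.0134), with KO 73 under WT 62. Igf1r, the receptor of insulin-like growth factor 1, was at 18.6, 15.1, 19.5, 14.98 and 19.6 CPM in WT, against 26.4, 29.4, 27.6, 30.5 and 31.9 CPM in KO, without overlap, and rose by 0.73 ± 0.10 (adjusted p = 0.00424). The metalloprotease Adam15 rose by 0.56, whereas Adam19 (-0.96) and Itgae (-1.29) fell. Adam10 (0.12), Adam17 (0.03), Notch1 (-0.02) and Insr (0.42) were not called.

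Genes of ribosome building rose by small amounts. Of 30 genes of ribosome biogenesis, 12 rose and 0 fell, all 30 had positive values, and the median was 0.23. The rises included 0.37 for Ncl, 0.23 for Nop58 and 0.22 for Npm1, nucleolar proteins that shape pre-ribosomal RNA. By edgeR 0 were called in the fit over all 30 libraries and without KO 68, KO 70, KO 74 or WT 72, 5 were called without WT 71 and 16 without KO 73. In log2(CPM + 0.5) the list's median level was lowest in WT 71, at -0.39 against -0.17 to 0.02 in the other WT libraries and 0.01 to 0.18 in KO.

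In G2 and M phases 2 of 30 genes fell and 27 had negative values, with a median of -0.13, and 1 of 30 S-phase genes fell. Over all genes tested 5.44% fell and 4.69% rose, so 1 or 2 calls in a list of 30 are near that share. Without KO 73 the G2 and M list had 8 that fell. It had 0 without WT 71, WT 72, KO 68, KO 70 or KO 74 and in the fit over all 30 libraries. Of 19 measured PI3K, AKT and FOXO targets 3 fell, Il7r among them, with 2 without WT 71, 7 without KO 73 and 2 in the fit over all 30 libraries. Ccnd3, a cyclin of the G1 phase, was at 290 to 343 CPM in WT, against 231 to 280 in KO and fell by 0.37. Txnip, which restrains glucose uptake, fell by 1.11, with 381 CPM in WT 71 and 264 in WT 72 against 114 to 155 in the other WT libraries and 71.7 to 160 in KO. Of 34 oxidative phosphorylation genes, 0 rose and 0 fell by edgeR, and 1 was lower by DESeq2. By edgeR 3 of the 34 had an unadjusted p below 0.05, beside 3336 of the 10849 genes tested. Of 24 sterol synthesis genes 1 fell, of 14 fatty acid synthesis genes 1 fell, of 29 genes of the ATF4 response 2 fell, and of 30 glycolysis and hypoxia genes 2 rose. Of 14 measured BCL2-family genes 2 fell, Bcl2 and Bmf, which promotes apoptosis (-1.30). Of 26 autophagy and lysosome genes 1 rose and 2 fell, Tfeb (-0.39) and Ctsd (-0.21). Crtam (0.81) was the member called of 7 measured natural-killer-type receptors. The BCL2-family and autophagy calls were 0 by edgeR without KO 68, KO 70 or KO 74, and without KO 73 they were 1 higher and 3 lower for BCL2-family genes and 1 higher and 4 lower for autophagy genes.

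Genes of the endoplasmic reticulum, where FURIN's substrates are folded, went both ways: 2 of 25 rose and 4 fell. The counts were 1 and 3 without WT 71 or WT 72, 4 and 5 without KO 73, 1 and 2 without KO 68 or KO 70, 0 and 2 without KO 74, and 1 and 1 in the fit over all 30 libraries. Edem1 helps remove misfolded glycoproteins. It was at 305, 308, 357, 310 and 344 CPM in WT, against 240, 196, 220, 246 and 212 CPM in KO. Edem1 fell by 0.54 ± 0.07 (adjusted p = 0.00394), had no overlap and was called in all of the fits. Xbp1, a transcription factor of the unfolded protein response, fell by 0.53, as did Dnajc3 (-0.21) and Sec11c (-0.20). Atf6, a sensor of the same response, rose by 0.54 and Hspa5, the main chaperone, by 0.29.

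Genes outside these lists were among those with the smallest p and the largest changes. Stom, a lipid-raft membrane protein, had the smallest p of all, at 13.1, 10.3, 9.03, 9.99 and 10.5 CPM in WT, against 17.9, 19.3, 19.9, 19.6 and 20.3 CPM in KO (0.87 ± 0.10, adjusted p = 0.00394). Pls1, an actin-bundling plastin, was at 2.88, 2.35, 3.40, 2.02 and 3.38 CPM in WT, against 6.48, 7.27, 7.48, 6.01 and 8.53 CPM in KO (1.35 ± 0.17, adjusted p = 0.00394). For Stom and Pls1 every KO library lay above every WT library, KO 73 included.

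Nfat5, a factor of the osmotic stress response, rose by 0.87, Exoc2, of the exocyst complex, by 0.53, Hspa4l, a chaperone, by 0.54, and the guanylate cyclase subunit Gucy1a1 by 0.79. Trim66 (2.13), the tetraspanin Cd63 (1.42), the potassium channel Kcnk10 (1.44) and Cavin3 (1.47) completed the 10 largest rises. They were called in 10, 9, 6 and 3 of the 10 fits without 1 library, in that order. For Cavin3, KO 63 (2.398 CPM) and KO 73 (1.931) lay within the WT range of 1.015 to 2.497 CPM. Trim66 averaged 0.96 CPM in WT. Eno3, a muscle-type enolase, fell by 0.58 and Chchd10, a mitochondrial protein, by 0.70. Cables1, which binds cyclin-dependent kinases, was at 12.3, 15.1, 27.6, 20.0 and 26.2 CPM in WT, against 6.66, 4.78, 7.61, 9.76 and 4.66 CPM in KO and fell by 1.60 ± 0.25 (adjusted p = 0.00823). The Polycomb component Pcgf5 fell by 0.58. The 10 largest falls also held Ifit1bl1 (-1.87), Irf7, the amino acid transporter Slc6a19 (-1.65), Xaf1 (-1.55), BC147527 (-1.48), Nod1 (-1.46), Tmcc3 (-1.46) and Usp18. For Ifit1bl1, Slc6a19, Xaf1, Irf7 and Nod1, WT 71 held far more than the other WT libraries, and Ifit1bl1, Slc6a19 and Xaf1 were called in 3, 3 and 2 of the 10 fits without 1 library.

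The genotype difference without cytokine was set beside that of the same title numbers with TGFB1 (0.5 ng/ml) or IL12 (10 ng/ml), each fitted on its own 10 libraries. Some differences had the same direction in the 3 conditions. Pls1 rose by 1.35 ± 0.17 without cytokine, 1.06 ± 0.27 with TGFB1 and 1.96 ± 0.27 with IL12. Btla rose by 0.57 ± 0.09, 0.85 ± 0.16 and 0.55 ± 0.10. Zbp1 fell by 0.81 ± 0.14, 1.56 ± 0.28 and 0.84 ± 0.14, and Plaur by 2.28 ± 0.33, 1.52 ± 0.48 and 2.20 ± 0.40. Il2 rose by 2.71 ± 0.48 without cytokine and was not called with either cytokine. Its values were 0.57 ± 0.55 with TGFB1 (edgeR adjusted p = 0.446) and 1.68 ± 0.34 with IL12 (edgeR adjusted p = 0.0551). The difference of the Il2 rise from that without cytokine was not called either. In the edgeR fit over all 30 libraries its adjusted p was 0.116 for TGFB1 and 0.997 for IL12. Furin had log2 fold changes of -0.06 ± 0.09 with TGFB1 (adjusted p = 0.656) and -0.81 ± 0.42 with IL12 (adjusted p = 0.296).

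The difference between conditions was tested in a fit over all 30 libraries, in which the same libraries without cytokine enter both contrasts. This edgeR fit, which gave the adjusted p-values below, took the 3 libraries of each title number as separate units. For TGFB1 the difference was called for 387 of 11718 genes (3.3%). It was called for 955 by limma-voom with the title number as a replicate block. The edgeR count rested on single libraries too, from 58 without WT 75 with TGFB1 to 2155 without WT 62 with TGFB1. Among the named genes, 11 differed, and with the title number as a replicate block 20 did, these 11 among them. Of the 107 named genes, 99 were called without cytokine, in libraries that also enter this difference. Such a choice favours differences that run against the effect without cytokine, so these counts are not a separate test. Dusp2 rose by 0.48 ± 0.09 without cytokine and fell by 0.58 ± 0.18 with TGFB1, a difference of -1.05 (adjusted p = 0.0159). Ccl5 rose by 1.10 ± 0.22 and fell by 1.48 ± 0.36 with TGFB1, a difference of -2.58 (adjusted p = 0.0198). For Il2ra, not called without cytokine (0.05 ± 0.08), the value with TGFB1 was 1.30 ± 0.36, a difference of 1.25 (adjusted p = 0.0416). The differences for Dusp2 and for Mvd, a sterol synthesis gene, were called in all 20 fits that left out 1 library, that for Ccl5 in 19 and that for Il2ra in 7.

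For IL12 the difference was called for 0 genes (0%) by edgeR and 0 by limma-voom with a replicate block. By edgeR 513 of 11718 genes had an unadjusted p below 0.05, fewer than that threshold gives on average when no gene differs. The smallest adjusted p was 0.997. The spread between libraries was wider with cytokine: the biological coefficient of variation was 9.1% without cytokine, 16.2% with TGFB1 and 15.4% with IL12.

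**Figure D5:**
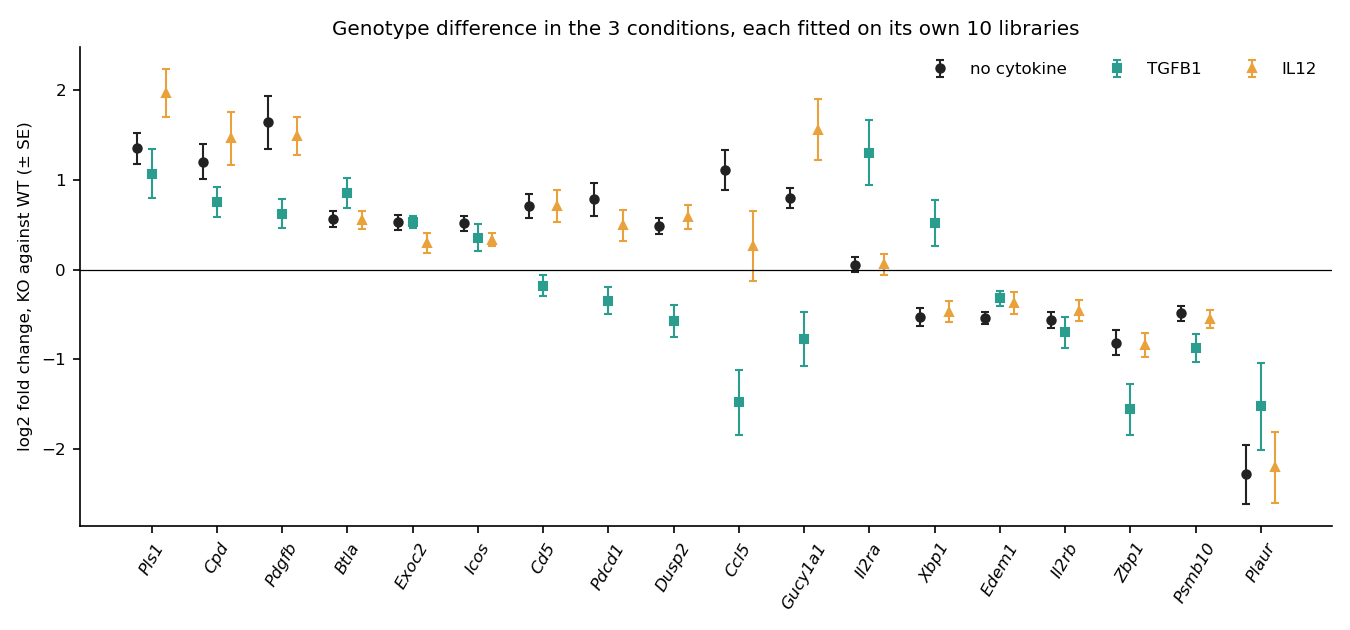
Log2 fold change of KO against WT (y axis, with SE as bars) of 18 genes in the 3 conditions, each from its own 10 libraries (black circles, no cytokine; green squares, TGFB1; orange triangles, IL12). Pls1, Btla, Zbp1 and Plaur keep 1 direction, while Dusp2 and Ccl5 lie above 0 without cytokine and below 0 with TGFB1.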

How the data were processed

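The authors deposited 1 table of raw counts per Ensembl gene for 30 mouse libraries. The build was GRCm38 and the tools STAR, Trim Galore, FastQC and DESeq2 1.24.0, per the submitters' processing notes. Which program counted the reads, with which strand setting and annotation, is not given in the sources used here. Per the labels' protocols, RNA was poly(A)-selected and the library kit was directional. Symbols came from GENCODE vM21 (55480 of 55573 identifiers, the other 93 holding 0.00021% of the counts) and promoters from RefSeq on GRCm38.p6.

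The tests ran in edgeR 4.0.16 under R 4.3.3. Genes were kept by filterByExpr (minimum count 10), which left 10849 genes with 99.83% of the counts, scaled by TMM and tested two-sided by the quasi-likelihood test on the 10 libraries without cytokine. CPM use the TMM factors, and log2 CPM for the components a prior count of 1. The SE of a log2 fold change is its size divided by the square root of F. Each title number gives 1 library here, which is why this fit was taken as the main one. The number of calls by it and by the fit over all 30 libraries was known when it was chosen. Alternatives used limma 3.58.1, DESeq2 1.42.0, other scalings and filters, and terms for sex and title number. The script was tested on simulated data. Libraries of the same group all differed by more than sampling noise.

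The members and gene lists were chosen with earlier results of these data known. Named genes have at least 4 CPM in the higher group: the 10 largest rises, the 10 largest falls, the 10 smallest p, up to 4 called members per list, the first 15 called in all fits, and 17 key genes. Some of these are not reported here. Other genes named (further list members, markers and neighbours of Furin) were chosen after their values were seen.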

Additional observations from a re-analysis of the deposited data

Results flagged for a closer look

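Some libraries stood apart from the other 4 of their group by Dixon's test at the 95% level, which chance alone meets in about 1 in 20 groups. Many genes were looked at in both genotypes, so chance alone would give a number of such cases. WT 71 was the library in most cases. It was high for Slamf6 (124.4 CPM), Dapl1 (101.6), Txk (58.73), Irf7 (11.37), Nod1 (9.26), Itgb7 (456.3), Ifit1bl1 (17.11), Xaf1 (11.02), Slc6a19 (20.16) and Tcf7 (505.3), and low for Eno3 (130.6 CPM) and Tgfb1 (215.9). WT 62 was high for Il2 (5.086 CPM) and Pdgfb (8.403) and low for Cdt1 (84.91), a replication-licensing factor. WT 72 was high for Bmf (14.39 CPM). KO 73 was high for the interferon-induced genes Usp18 (7.079 CPM), Isg15 (7.4) and Xaf1 (5.577).

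For 11 named genes the KO against WT difference in log2 fold change with TGFB1 less that without cytokine passed the edgeR test over all 30 libraries. That test took the libraries of each title number as separate units. Most named genes were picked by their calls without cytokine, in libraries that enter this test too, which favours differences against that effect. It was -1.58 for Gucy1a1, -1.05 for Dusp2, -0.88 for Cd5, -2.58 for Ccl5, -0.83 for Atf6, -1.13 for Pdcd1, -0.52 for Tgif1 and -1.33 for Serpinb6b, and it was 1.05 for Xbp1, 0.93 for Mvd and 1.25 for Il2ra. Of the 20 fits that left out 1 library, Gucy1a1 was called in 6, Il2ra in 7, Tgif1 in 8, Cd5 and Xbp1 in 10 each and Pdcd1 in 13.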

How the results depend on the processing

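The count of genes called without cytokine was 1099 (509 higher, 590 lower in KO). It was 246 (126 and 120) with all 30 libraries, 277 (133 and 144) with all 30 libraries and the title number as a replicate block, and 1847 (897 and 950) without WT 71 and KO 73. With a term for sex it was 732 and 382 of these were lower. The title numbers do not pair WT with KO, since each belongs to 1 genotype, and the consensus correlation of the block was 0.1424. Leaving out 1 library gave 157 to 2119 genes, 80 to 1014 higher and 77 to 1105 lower. The other tools, scalings and filters gave 1073 (limma-voom) to 1480 (no filter), and DESeq2 called 1474, of which 1081 were shared. The difference with TGFB1 was called for 387 genes, 955 with the replicate block, and 58 to 2155 with 1 library left out, a set of fits added after the data were seen. Of 107 named genes, 99 were called with the 10 libraries. Of those called, 58 lost their call with all 30 libraries, and 52 without KO 74.

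The genes that changed sign, Tgfb1 and Il2ra, were not called with the 10 libraries. Tgfb1 had -0.0132 with upper-quartile factors, -0.000814 with no filter, -0.0308 without WT 71 and KO 73, -0.0148 without KO 68, -0.0363 without WT 71 and -0.00451 without KO 74. With 1 library left out Tgfb1 reached 0.0178 at most. Il2ra had -0.0483 without WT 71 and KO 73, and -0.0254 (without WT 71) to 0.099 with 1 library left out. The cause of these changes was not tested. At this depth 10 counts correspond to about 1 CPM, so genes near that level are the least precise.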
